A study of Homo sapiens with 5 samples.

Results

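The comparison set 2 established human pancreatic cell lines with low CDH1, PANC1 and L3.6, against 3 lines with high CDH1, HPAF1, SU86.86 and HPDE. These 5 lines were all the samples of the series. Each was measured once on an Affymetrix expression array, untreated and from a single culture, and the values of a line therefore come without an error. PANC1, HPAF1, SU86.86 and L3.6 come from pancreatic carcinomas. HPDE is known in the field as duct epithelium immortalised with papillomavirus genes, although its source label names a cancer line. A line is a single culture model and carries its own mutations. Side, tumour of origin and line cannot be told apart in this design. In bulk RNA, fewer cells of a type and less RNA per cell cannot be told apart either.

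The sides were chosen by the measured levels of CDH1 and RAB25 in these same arrays. Every other gene was then read on the same 5 arrays, so all differences are a description and carry no test. Levels are log2(intensity + 71.1), on which scale the level filter, the median of all probe sets, lies at 7.72 (an intensity of 140). Differences are log2, CDH1-low mean minus CDH1-high mean. The gap of a gene is the log2 distance between the nearest lines of opposite sides when the sides do not overlap. A gene was counted as separated when both CDH1-low lines lay beyond all 3 CDH1-high lines by a gap of at least 1, which is 2-fold on this scale. The added constant makes folds of dim genes too small.

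CDH1 encodes E-cadherin, the calcium-dependent adhesion molecule that holds epithelial cells together at adherens junctions. RAB25 is an epithelial small GTPase of the RAB11 group that returns cargo from recycling endosomes to the cell surface. Loss of E-cadherin is a hallmark of the epithelial-mesenchymal transition, in which repressors of the SNAI and ZEB families bind E-box sequences in epithelial promoters and vimentin filaments appear. Carcinoma lines often hold mixtures of the epithelial and mesenchymal states.

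CDH1 was low but not absent on the CDH1-low side. Its level was 8.61 in PANC1 and 9.92 in L3.6, against 12.90 in HPAF1, 12.73 in SU86.86 and 13.34 in HPDE. The corresponding intensities were 320 and 895, against 7588, 6736 and 10281. Both CDH1-low lines were thus above the level filter, L3.6 further than PANC1. A second CDH1 probe set gave 7.05 in PANC1 and 7.74 in L3.6, against 10.38, 10.36 and 10.91 in HPAF1, SU86.86 and HPDE. There PANC1 was below the filter and L3.6 at it, and the gap was -2.62, near the -2.82 of the brighter probe set. RAB25, with 1 probe set, was below the level filter in both CDH1-low lines. It stood at 6.91 in PANC1 and 7.09 in L3.6, against 11.76 in HPAF1, 11.50 in SU86.86 and 11.26 in HPDE. These values chose the sides and are not a finding.

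The genes beside CDH1 and RAB25 on their chromosomes were not separated. Of the 3 protein-coding genes on each side of CDH1 on chromosome 16 in RefSeq order, 0 were separated. The nearest was CDH3, P-cadherin, at 7.46 in PANC1 and 10.19 in L3.6, against 10.16 in HPAF1, 10.81 in SU86.86 and 12.53 in HPDE. CDH3 was therefore low in PANC1 alone, while L3.6 lay just above HPAF1. ZFP90 and TANGO6, next along the chromosome, differed between the sides by 0.03 and 0.11. HAS3, beyond TANGO6, differed by 0.79, with a level of 7.26 in SU86.86. Around RAB25 on chromosome 1 the neighbours LAMTOR2 and MEX3A differed by 0.24 and 0.14, and 0 of 6 neighbours were separated. Over all genes only 0.551% were separated as lower and 0.128% as higher. A count of 0 among so few neighbours is therefore no result about them.

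**Figure D1:**
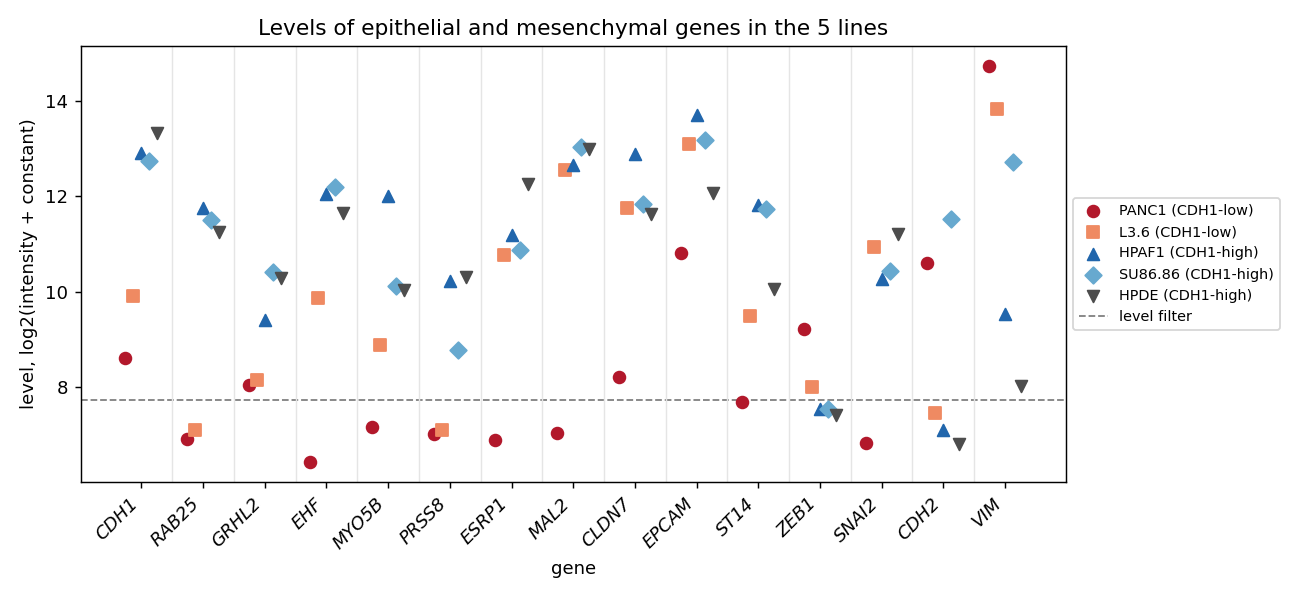
Levels of 15 epithelial and mesenchymal genes, as log2 of intensity plus a constant, with 1 point per line, the CDH1-low lines in warm colours and left of the CDH1-high lines. CDH1, RAB25, GRHL2, EHF, MYO5B and PRSS8 are low in both PANC1 and L3.6, whereas ESRP1, MAL2 and CLDN7 are low in PANC1 only; the dashed line is the level filter at 7.72.

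Promoters are shown for 4 of the separated genes because they hold the motifs that E-box repressors and interferon-activated factors are known to bind. Each runs from 250 bases before to 50 bases after the RefSeq start site in GRCh38.p14, written 5′ to 3′ on the gene's strand. For RAB25 (chr1:156060910-156061209, plus strand) and for MYO5B (chr18:50195098-50195397, minus strand) capitals mark the E-box CACCTG or its reverse complement CAGGTG. For IFI27 (chr14:94110486-94110785, plus strand) and for ISG15 (chr1:1013247-1013546, plus strand) capitals mark the interferon-response motif (GAAA, any 2 bases, GAAA) or its reverse complement, with matches allowed to overlap.
RAB25: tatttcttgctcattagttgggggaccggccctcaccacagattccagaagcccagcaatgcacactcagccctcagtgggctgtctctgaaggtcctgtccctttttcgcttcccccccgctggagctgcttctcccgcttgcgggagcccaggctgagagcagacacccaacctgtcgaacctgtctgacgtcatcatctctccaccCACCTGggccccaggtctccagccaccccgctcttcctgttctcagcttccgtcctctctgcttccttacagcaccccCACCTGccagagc
MYO5B: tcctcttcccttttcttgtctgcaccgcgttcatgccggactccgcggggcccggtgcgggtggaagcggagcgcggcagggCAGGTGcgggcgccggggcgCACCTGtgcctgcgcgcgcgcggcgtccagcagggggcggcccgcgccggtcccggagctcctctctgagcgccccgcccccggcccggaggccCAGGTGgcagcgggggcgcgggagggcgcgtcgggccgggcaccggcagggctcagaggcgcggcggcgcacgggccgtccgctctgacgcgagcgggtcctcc
IFI27: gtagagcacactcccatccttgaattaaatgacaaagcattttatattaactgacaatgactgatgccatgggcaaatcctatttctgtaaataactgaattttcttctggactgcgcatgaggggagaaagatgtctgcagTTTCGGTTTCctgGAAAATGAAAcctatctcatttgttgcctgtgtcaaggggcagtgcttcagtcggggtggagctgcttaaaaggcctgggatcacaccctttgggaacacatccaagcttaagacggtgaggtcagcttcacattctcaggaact
ISG15: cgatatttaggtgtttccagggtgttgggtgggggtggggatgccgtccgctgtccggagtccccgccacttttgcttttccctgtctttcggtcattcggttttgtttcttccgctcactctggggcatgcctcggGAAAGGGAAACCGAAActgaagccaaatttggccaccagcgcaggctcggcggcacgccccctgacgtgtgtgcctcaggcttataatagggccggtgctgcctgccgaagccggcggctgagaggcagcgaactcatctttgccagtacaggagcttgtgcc

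RAB25 held 2 E-boxes, one beginning 41 bases upstream and one 37 bases downstream of the start site. MYO5B held 3, all upstream. IFI27 and ISG15 each held 2 interferon-response motifs. CDH1 had no promoter in the table used and was not scanned. Of the 82 genes separated as lower, 70 had a promoter there, and 26 of these (37.1%) held an E-box on either strand. The share was 19.4% of the 11885 promoters of genes past the level filter, and 20.6% of all 27305 promoters in the table. Of the genes separated as higher, 14 had a promoter and 2 of these (14.3%) held an E-box. The interferon-response motif was present in 10 of the 70 (14.3%), against 2.68% for genes past the filter and 3.65% of all promoters. The grainyhead motif AACCGGTT was in 0 of the 70, against 0.143% and 0.117%. It is too rare for this 0 to be a result. A match is a description of the letters and not evidence that a factor bound there. MIR205HG and MIR200CHG, transcripts that host microRNAs and were chosen after their values were seen, overlapped between the sides. MIR205HG stood at 6.91 in PANC1 and 9.53 in L3.6, against 6.88, 7.06 and 11.68 in HPAF1, SU86.86 and HPDE.

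Far more genes were separated as lower than as higher on the CDH1-low side. Of 14894 genes past the level filter, 82 were separated as lower (0.551%) and 19 as higher (0.128%). When any gap was allowed the balance turned, with 1369 genes lower (9.19%) and 2039 higher (13.7%). At the 2-fold limit it also turned with SU86.86 left out, with 215 genes lower and 241 higher. The median gap of the 82 lower genes was 1.34 in size and that of the 19 higher genes 1.19, and 14 of them, against 1 of the higher genes, had a gap of at least 4-fold. At the edge of the rule EREG, KIFAP3 and SP100 were just inside, with gaps of -1.02, -1.01 and -1.01. PLD3, SGMS2 and PARP12 were just outside, with gaps of -0.999, -0.997 and -0.995. On the higher side SAP30 (1.01) was just inside and RNASEH1-DT (0.95) just outside. The correlation across the 14894 genes was 0.871 between PANC1 and L3.6, but 0.886 between L3.6 and SU86.86, which lie on opposite sides. Genes are not independent replicates, and these coefficients share their lines.

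The widest gap of all belonged to IFI27, an interferon-induced mitochondrial protein. It stood at 7.14 in PANC1 and 7.19 in L3.6, against 14.20 in HPAF1, 11.91 in SU86.86 and 13.86 in HPDE, a gap of -4.71. Both CDH1-low lines were below the level filter. After RAB25 and CDH1 came SCEL, sciellin, a precursor of the cornified envelope. SCEL was at 6.54 and 6.98 in PANC1 and L3.6, against 10.12, 11.31 and 9.74 in HPAF1, SU86.86 and HPDE. G0S2, an inhibitor of the triglyceride lipase ATGL, was at 6.81 and 6.59, against 9.56, 10.67 and 11.89. CD24, a mucin-like surface glycoprotein of epithelial progenitors, stayed above the filter in PANC1 and L3.6 at 9.74 and 9.27, against 12.43, 12.37 and 13.17. All 6 CD24 probe sets had a gap of -2.31 or wider. GJB2, connexin 26 of gap junctions, was at 7.62 and 7.10, against 9.99, 9.84 and 10.21. TGFBI, a secreted matrix protein induced by TGF-beta, stood at 10.13 in PANC1 and 7.93 in L3.6, against 13.61, 12.55 and 12.27.

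Others among the 15 widest lower gaps were TMEM154 (gap -2.54), GRAMD2B (-2.52), DDX60L (-2.42) and MAOA (-2.13), the mitochondrial amine oxidase. ISG15 (-2.31), the ubiquitin-like interferon product, LY75 (-2.01), an endocytic receptor, and ARAP2 (-1.92), a GTPase-activating protein, completed the group. A second ARAP2 probe set showed no separation. Among the 82 lower genes, 47 had further probe sets above the filter. All of those probe sets lay on the same side without overlap for 33 genes, and for 14 at least 1 overlapped, EHF, MYO5B and CBLC among them. For PDLIM5 and BACH1, 1 other probe set lay the opposite way by a small gap.

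PANC1 and L3.6 were not alike in how far they lay below. PANC1 was the lowest line for 59 of the 82 genes and L3.6 for 23. L3.6 was at least 2-fold above PANC1 for 15 and at least 2-fold below it for 3. In 29 genes both lines were below the level filter, in 22 only one was, and in 31 neither was. ANXA3, a membrane-binding annexin, showed the widest step, at 6.83 in PANC1 and 11.36 in L3.6, against 12.60 in HPAF1, 12.97 in SU86.86 and 12.49 in HPDE. On the CDH1-high side the highest level was that of HPAF1 for 34 genes, HPDE for 29 and SU86.86 for 19.

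**Figure D2:**
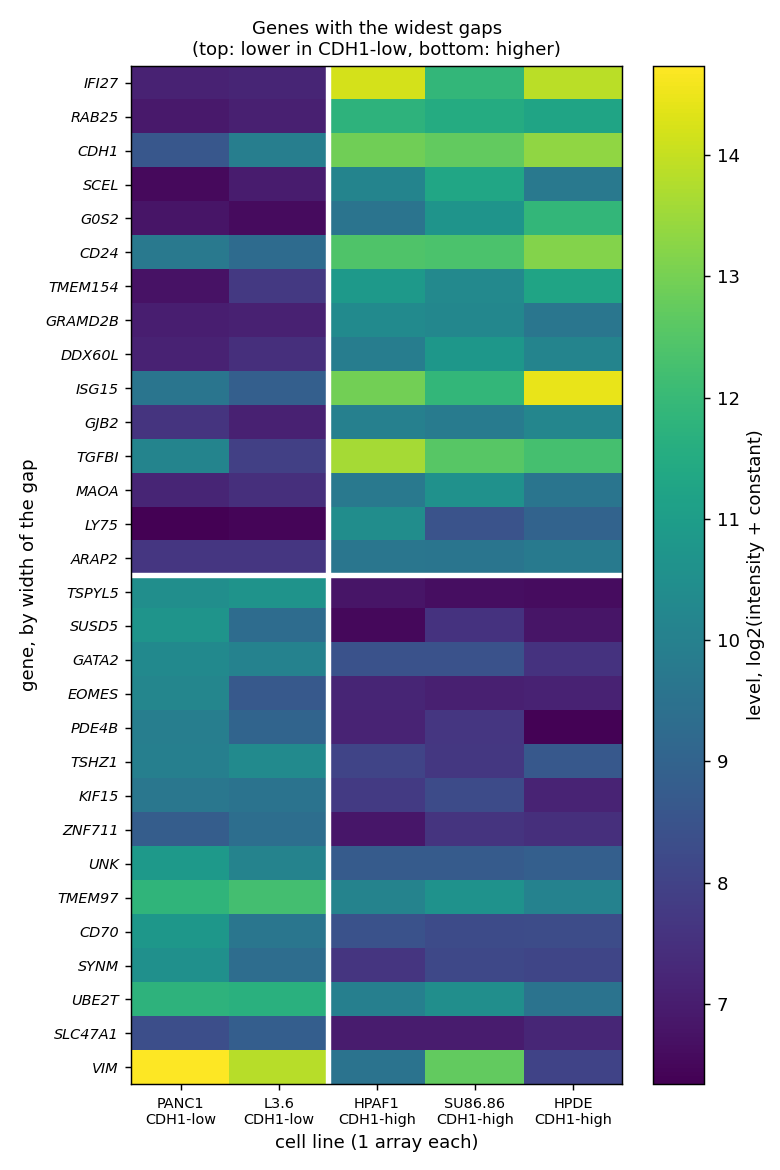
Levels in each line (columns, 1 array each, CDH1-low lines left of the white bar) for the 15 genes with the widest gaps as lower and the 15 as higher, as log2 of intensity plus a constant. Each lower gene is darker in PANC1 and L3.6 than in the other 3 lines. Among the higher genes TSPYL5 is brighter in both and below the level filter in the other 3 lines.

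Epithelial genes stood lower on the CDH1-low side, and more of them lay 2-fold below in PANC1 alone than in both lines. The 8 epithelial lists held 109 genes past the level filter, of 110 with a probe set of their own. Of these 109, 7 were separated as lower and 0 as higher, CDH1 and RAB25 being 2 of the 7, where 0.551% of all genes were separated as lower. The 7 became 10 without PANC1, 36 without L3.6, 11 without HPAF1, 14 without SU86.86 and 15 without HPDE. Over all genes the 82 became 217, 364, 152, 215 and 203 in the same order, as fewer lines make separation easier. The epithelial count was 4 with probe sets averaged and 4 with multi-transcript probe sets left out, CDH1 having no other kind. All genes then gave 54 and 56. Without the size limit 33, CDH1 and RAB25 again among them, were lower (30.3%, against 9.19% of all genes) and 1 higher. The median difference of the 109, these 2 included, was -0.84, against 0.03 over all genes. A further 29 (26.6%) lay at least 2-fold below every CDH1-high line in PANC1 only, where the share over all genes was 1.87%. In L3.6 only, 3 did so, KRT80, OCLN and PARD6B, where the share over all genes was 0.893%. The median over the lists was -1.04 for PANC1 alone against the CDH1-high lines and -0.47 for L3.6 alone. The 7 separated epithelial genes were thus 7 of the 82 and 7 of the 109.

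The transcription factors GRHL2 and EHF were the separated members of the list of epithelial splicing factors and regulators, 16 past the level filter. They made up 12.5% of it, against 0.551% of all genes separated as lower. GRHL2, a grainyhead factor that activates junction genes including CDH1, stood at 8.04 in PANC1 and 8.15 in L3.6, against 9.41 in HPAF1, 10.41 in SU86.86 and 10.28 in HPDE. EHF, an ETS factor of epithelia, stood at 6.42 in PANC1 and 9.86 in L3.6, against 12.04, 12.19 and 11.65. L3.6 was intermediate for EHF and level with PANC1 for GRHL2. With probe sets averaged the EHF gap was -0.97, under the limit. ESRP1, which directs epithelial splicing, had a gap of only -0.10. Levels were 6.88 (PANC1) and 10.77 (L3.6), against 11.20, 10.86 and 12.25. KLF5, a factor of proliferating epithelium, stood at 7.58 in PANC1 and 12.23 in L3.6, within the CDH1-high range of 11.73 to 12.75. KLF4 (gap -0.33) was the fourth member without overlap.

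Among tight junction and polarity genes, 22 past the filter, CGN was the separated member (4.55%, against 0.551% of all genes). Cingulin, its product, lies on the cytoplasmic face of tight junctions. CGN stood at 7.97 in PANC1 and 7.14 in L3.6, against 9.85 in HPAF1, 9.85 in SU86.86 and 9.003 in HPDE. Its gap of -1.03 was -0.95 under quantile normalization and -0.95 with probe sets averaged, both under the limit, and a second probe set gave -0.87. With multi-transcript probe sets left out CGN had no value. In all 8 members were lower without overlap (36.4%, against 9.19% of all genes). The scaffold TJP1 (gap -0.83) and the claudin CLDN12 (-0.65) were next in order. SCRIB was the 1 member higher, with a gap of 0.18. CLDN7 was low in PANC1 alone at 8.22, with 11.76 in L3.6 against 12.89, 11.83 and 11.63 on the CDH1-high side. CLDN4 stood at 7.29 in PANC1 and 8.72 in L3.6, against 12.04 in HPAF1, 10.52 in SU86.86 and 8.49 in HPDE. CLDN3 did not follow the sides, with 8.56 and 9.82 in PANC1 and L3.6 against 10.37, 9.55 and 8.26. OCLN, occludin, had its lowest level in L3.6, at 9.48, with 10.996 in PANC1 against 11.04 to 11.89 in the CDH1-high lines.

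Of 22 apical transport genes, RAB25 and MYO5B were separated and 7 were lower without overlap (31.8%). Over all genes 0.551% were separated as lower and 9.19% were lower without overlap. RAB25, 1 of the 7, was used to choose the sides. MYO5B is the myosin motor that moves RAB11 and RAB25 vesicles to the apical surface. MYO5B stood at 7.17 in PANC1 and 8.87 in L3.6, against 12.01 in HPAF1, 10.12 in SU86.86 and 10.03 in HPDE. Its second probe set above the filter overlapped, and with probe sets averaged the gap was -0.36. The close relative RAB11A overlapped, with 12.52 and 12.48 in PANC1 and L3.6 against 12.66, 12.36 and 12.44. SYTL1, a RAB27 effector, was lower by a gap of -0.98 and the clathrin adaptor subunit AP1S3 by -0.56. The epithelial adaptor subunit AP1M2 overlapped, with 10.48 and 10.29 against 10.997, 10.65 and 10.41. MAL2, a transcytosis protein, stood at 7.03 in PANC1 and 12.55 in L3.6, against 12.66, 13.04 and 12.99. Its gap was thus -0.10, and the low level was that of PANC1.

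Adherens junction genes had a median difference of -0.55. Of 11 past the filter, CDH1 alone was separated and 4 were lower without overlap (36.4%, against 9.19% of all genes). CDH1, used to choose the sides, is 1 of the 4, and NECTIN4 is another, with a gap of -0.22. JUP, plakoglobin, missed the limit with a gap of -0.99, at 9.84 in PANC1 and 10.41 in L3.6 against 11.78, 11.40 and 12.03. CTNNA1, alpha-catenin, had a gap of -0.17. CTNNB1, beta-catenin, was at 11.49 and 11.46, within the CDH1-high range of 10.83 to 11.84. EPCAM was low in PANC1 only, at 10.80, with 13.10 in L3.6 against 13.71, 13.19 and 12.06. Among 8 other cadherins 0 were separated, where 0.551% of all genes were separated as lower and 0.128% as higher. CDH2, the N-cadherin of mesenchymal cells, was high in PANC1 (10.61) and low in L3.6 (7.45), against 7.10 in HPAF1, 11.53 in SU86.86 and 6.80 in HPDE.

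Membrane serine proteases and their inhibitors had the largest share of lower members of the 8 lists, 6 of 12 (50%). Over all genes 9.19% were lower without overlap. The narrowest gaps among the 6 were those of TMPRSS3 (-0.03) and PRSS22 (-0.19). The median difference of the list was -1.62. That median was -1.04 without PANC1 and -0.77 without HPAF1. PRSS8, prostasin, was separated at 7.01 in PANC1 and 7.09 in L3.6, against 10.22 in HPAF1, 8.78 in SU86.86 and 10.31 in HPDE. Its activating partner ST14, matriptase, was at 7.67 and 9.49, against 11.81, 11.74 and 10.05, a gap of -0.56. SPINT1, the inhibitor of matriptase, was at 8.06 and 10.21, against 10.89, 11.03 and 10.90. Of 11 desmosome genes 3 were lower without overlap (27.3%), PKP2 (gap -0.76), DSG2 (-0.31) and PPL (-0.29), and 0 were separated. None of 8 hemidesmosome and laminin genes was without overlap, and 3 of them were low in PANC1 alone, among them ITGB4 (7.59, with 12.12 in L3.6 against 10.94 to 11.49). Of 7 simple keratins only KRT80 lay without overlap (gap -0.91). KRT7 stood at 7.51 in PANC1 and 12.88 in L3.6, against 13.34, 13.62 and 12.15. The 5 stratified keratins all overlapped, and KRT13 was high in L3.6 alone (12.97, against at most 7.76 in every other line).

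**Figure D3:**
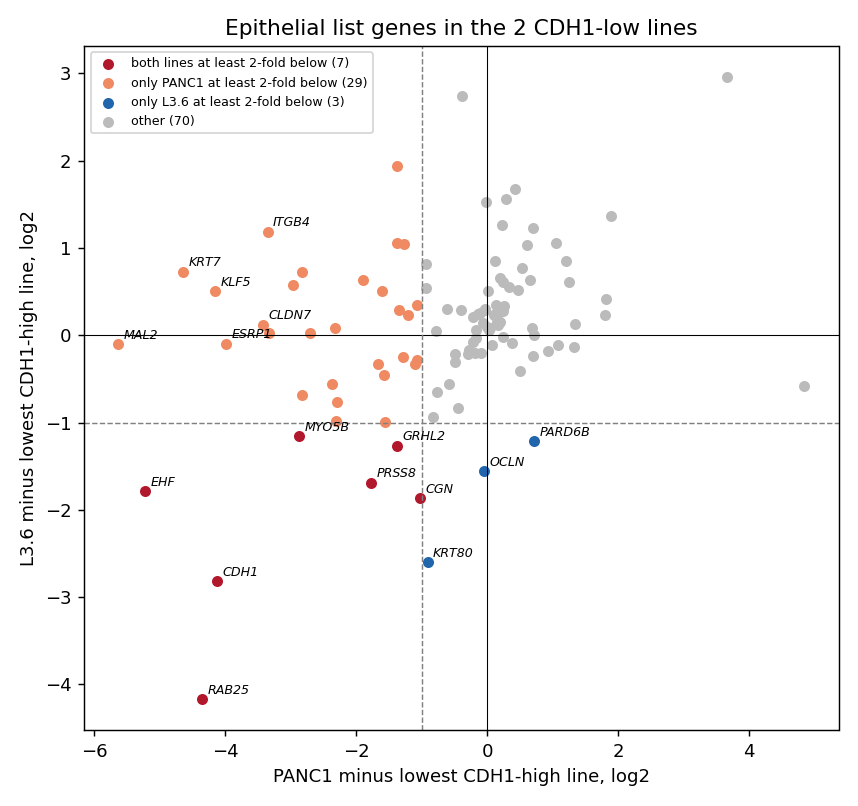
Each point is 1 of 109 epithelial list genes, placed by its level in PANC1 (horizontal) and in L3.6 (vertical) minus the lowest of the 3 CDH1-high lines, in log2. The 7 red points beyond both dashed lines are at least 2-fold below in both lines, and the 29 orange points only in PANC1.

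Regulators of the mesenchymal state were not uniformly high. Of 12 factors measured 8 passed the level filter. Of these 3 lay higher without overlap (37.5%, against 13.7% of all genes) and 0 were separated, with gaps of at most 0.45. ZEB1, a repressor of CDH1, stood at 9.22 in PANC1 and 7.99 in L3.6, against 7.54 in HPAF1, 7.54 in SU86.86 and 7.41 in HPDE. PANC1 was clearly above and L3.6 just above the filter, with a gap of 0.45. On its other 2 bright probe sets L3.6 was below the filter, at 7.19 and 7.41. FOXC2 and TCF3 had gaps of 0.18 and 0.14. SNAI1 lay between 7.56 and 7.93 in all 5 lines. SNAI2, another repressor of CDH1, was lowest in PANC1, at 6.82, with 10.94 in L3.6 against 10.26, 10.43 and 11.22. TWIST1 stood at 6.66 in PANC1 and 8.15 in L3.6, against at most 6.83. ZEB2 did not reach the level filter in any line.

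VIM, vimentin, was separated as higher on its brighter probe set, and its level in SU86.86 was also high. VIM stood at 14.74 in PANC1 and 13.84 in L3.6, against 9.52 in HPAF1, 12.71 in SU86.86 and 8.02 in HPDE. On a second, dimmer VIM probe set the gap was 0.12. With probe sets averaged it was 0.66, under the limit, and with multi-transcript probe sets left out VIM had no value. Of 28 mesenchymal genes past the filter, 7 were higher without overlap and 3 lower (10.7%), where the shares over all genes were 13.7% and 9.19%. The median difference was -0.18, but 0.26 without L3.6 and 0.23 without SU86.86. VIM was the 1 separated as higher and TGFBI the 1 as lower, where the shares over all genes were 0.128% and 0.551%. FN1, fibronectin, was lowest in the CDH1-low lines, at 7.47 and 7.76, against 8.23, 11.24 and 10.73. TAGLN, a smooth muscle actin-binding protein, was also lower (gap -0.30). COL1A2 was high in L3.6 alone, at 9.91, with 7.59 in PANC1 against at most 7.46. Over all genes 96 (0.645%) lay at least 2-fold above every CDH1-high line in L3.6 only, and 275 (1.85%) in PANC1 only. SU86.86 had the highest level for 13 of the 28 genes.

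TSPYL5 had the widest gap of the 19 genes separated as higher. TSPYL5, a nucleosome-assembly family protein, stood at 10.48 in PANC1 and 10.65 in L3.6, against 6.81 in HPAF1, 6.66 in SU86.86 and 6.63 in HPDE. The CDH1-high lines were below the level filter and the gap was 3.67, by 1 probe set. SUSD5 was at 10.69 and 9.29, against 6.53, 7.56 and 6.82. GATA2, a zinc-finger factor of blood and endothelium, was at 10.32 and 10.06, against 8.47, 8.46 and 7.57. The other 2 GATA2 probe sets gave gaps of 0.15 and 0.0024, and averaging all of them gave 0.68, under the limit. EOMES, a T-box factor, was at 10.18 and 8.68, against 7.22, 7.06 and 7.15. PDE4B, which breaks down cyclic AMP, was at 9.91 and 9.06, against 7.19, 7.67 and 6.40, and its gap was 0.88 with probe sets averaged. TSHZ1, a zinc-finger factor of development, was at 9.97 and 10.35, against 8.07, 7.69 and 8.65, and its second probe set gave a gap of 1.32.

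The remaining widest higher genes had gaps of 1.13 to 1.28. They were the mitotic kinesin KIF15, the zinc-finger gene ZNF711, the RNA-binding UNK, TMEM97 of sterol transport, the CD27 ligand CD70, the intermediate filament SYNM, the ubiquitin-conjugating enzyme UBE2T, the cation extruder SLC47A1 and VIM. SYNM stood at 10.56 in PANC1 and 9.33 in L3.6, against 7.62, 8.15 and 8.09. The synemin it encodes pairs with vimentin in filaments. PANC1 had the highest level for 12 of the 19 genes and L3.6 for 7, and in neither line was any of the 19 below the level filter.

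**Figure D4:**
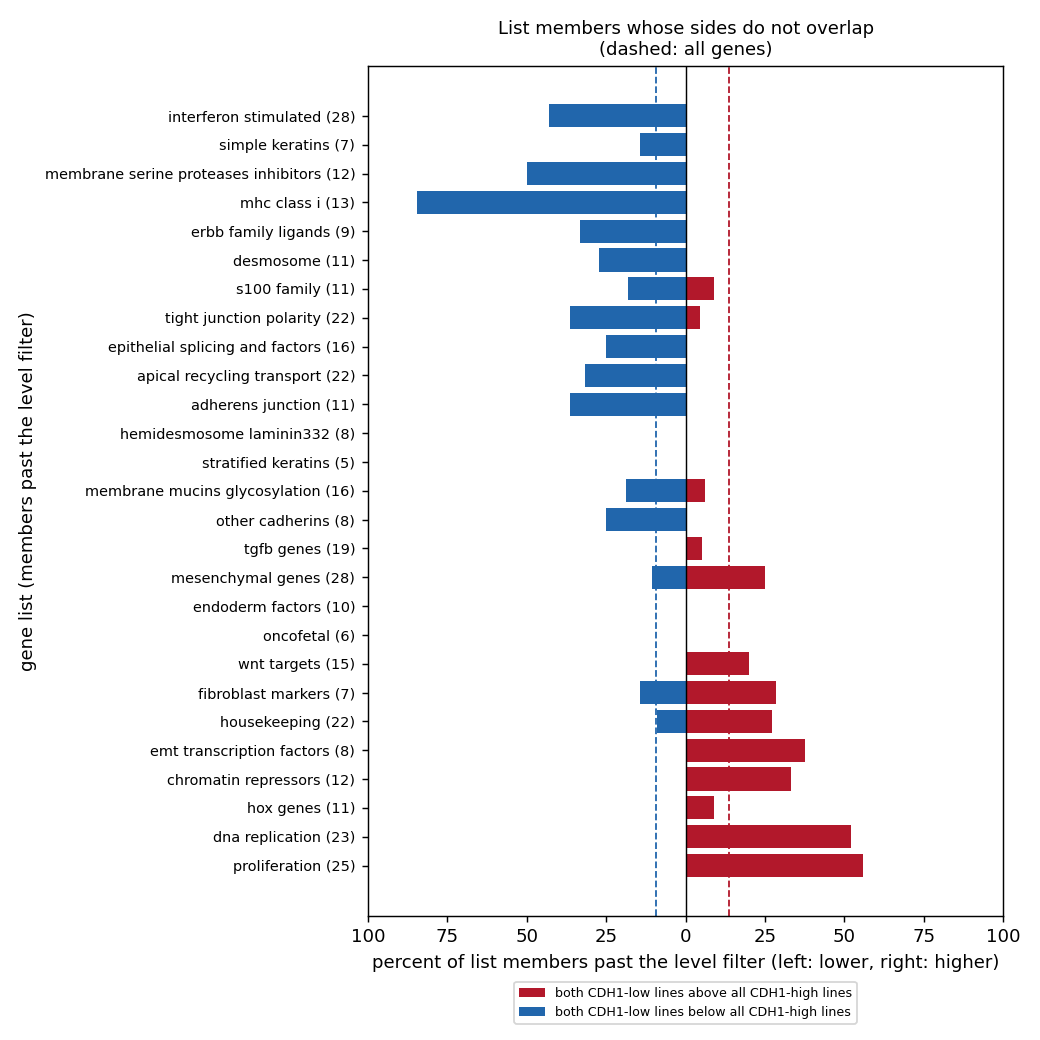
For each gene list with at least 5 members past the level filter, bars give the percent of members with both CDH1-low lines above (red, right) or below (blue, left) all CDH1-high lines. Dashed lines mark all genes, 13.7% higher and 9.19% lower; MHC class I reaches 84.6% lower and proliferation 56.0% higher.

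Interferon-stimulated genes were lower on the CDH1-low side beside the epithelial ones. Of 28 measured, 5 were separated as lower (17.9%, against 0.551% of all genes), namely IFI27, ISG15, EPSTI1, MX1 and ISG20. In all 12 were lower without overlap (42.9%, against 9.19% of all genes), with 0 higher. The median difference was -2.21. MX1, an antiviral GTPase, stood at 6.91 in PANC1 and 7.19 in L3.6, against 11.78 in HPAF1, 8.43 in SU86.86 and 13.18 in HPDE. ISG20, an exonuclease, was at 9.10 and 9.08, against 10.39, 10.27 and 10.46. Of the CDH1-high lines SU86.86 had the lowest median of the list. BST2, which tethers virions, was at 6.74 and 7.08 in PANC1 and L3.6, against 11.91 in HPAF1, 6.84 in SU86.86 and 12.40 in HPDE. With SU86.86 left out 19 of 28 were separated, with L3.6 left out 11, and with HPDE left out 5, the median then being -1.44. The 82 lower genes among all genes became 215, 364 and 203 in the same cases. HPDE had the highest level for 23 of the 28.

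MHC class I genes showed the same side in small steps. Of 13 measured, 11 were lower without overlap (84.6%, against 9.19% of all genes) and 0 were separated, with a median difference of -1.16. HLA-E, which presents leader peptides, stood at 10.35 in PANC1 and 10.98 in L3.6, against 11.65 in HPAF1, 12.35 in SU86.86 and 12.22 in HPDE. PSMB9, an immunoproteasome subunit, was at 8.70 and 8.79, against 10.58, 11.26 and 9.62. B2M, the light chain, was at 13.37 and 13.70, against 14.35, 14.27 and 14.22. TAPBP and PSMB10 overlapped. Without L3.6 5 of the 13 were separated, without HPAF1 4 and without HPDE 1. The 82 lower genes among all 14894 became 364, 152 and 203 in the same cases. SU86.86 was the highest line for 9 of the 13. HLA probe sets can match several near-identical class I genes, so their levels cannot be assigned to 1 gene with certainty. With multi-transcript probe sets left out, 9 members remained, 5 of them without overlap, and the median was -0.54.

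Members of the proliferation and DNA replication lists stood higher on the CDH1-low side by gaps under 2-fold. Of 25 proliferation genes 14 were higher without overlap (56.0%, against 13.7% of all genes) and 0 lower, 0 were separated, and the median difference was 1.38. Without HPDE that median was 0.84, and without SU86.86 it was 2.01. Of 23 DNA replication genes 12 were higher (52.2%) and 0 lower, with a median of 1.20. BUB1B, a spindle checkpoint kinase, had the widest gap of the proliferation list (0.81). It stood at 11.85 in PANC1 and 11.62 in L3.6, against 9.58 in HPAF1, 10.81 in SU86.86 and 8.72 in HPDE. TYMS, thymidylate synthase, was at 13.58 and 12.50, against 9.96, 12.30 and 8.69. SU86.86 lay close to the CDH1-low lines. Without it 18 of 25 proliferation genes and 12 of 23 replication genes were separated. Of all genes 241 of 14751 were then separated as higher, against 19 of 14894 with every line kept. HPDE had the lowest level for all 25 proliferation genes. Whether growth state has a part in the epithelial or interferon differences was not tested.

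**Figure D5:**
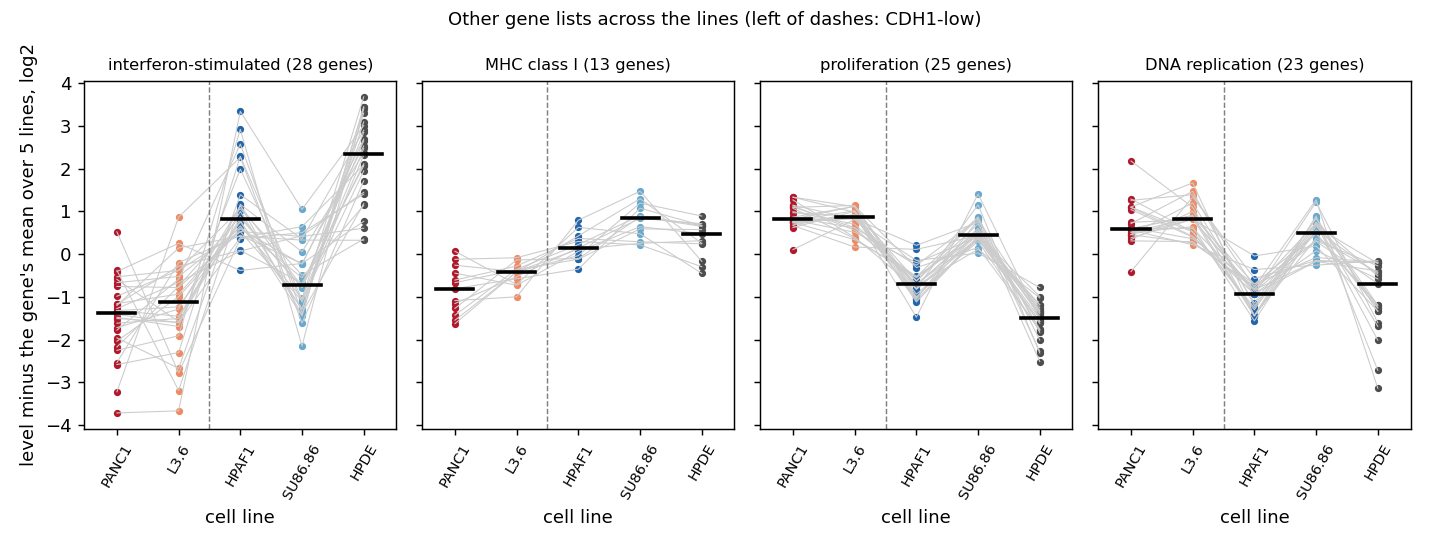
Each grey line is 1 gene, plotted for each cell line as its level minus its mean over the 5 lines in log2, with black bars at the median. For interferon-stimulated genes the medians are -1.37 in PANC1 and -1.12 in L3.6, against 0.81, -0.72 and 2.34 in HPAF1, SU86.86 and HPDE; proliferation genes run the other way, with SU86.86 again nearest the CDH1-low lines.

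Growth factor genes of the ERBB family were partly lower. Of 9 past the filter, 3 were lower without overlap (33.3%, against 9.19% of all genes) and 0 higher (against 13.7%). The median difference was -1.05. The median was -0.23 without PANC1, -1.99 without L3.6 and -0.43 with probe sets averaged. EREG, epiregulin, was separated at 8.34 in PANC1 and 11.16 in L3.6, against 12.18, 12.52 and 12.57. Its gap of -1.02 was -0.91 under quantile normalization and -0.84 with probe sets averaged, both under the limit. BTC, betacellulin, had a gap of -0.78 and the receptor ERBB3 one of -0.26. EGFR overlapped, at 12.07 and 10.95 against 11.99, 12.11 and 11.74. Among 16 mucin and glycosylation genes GALNT3, which starts mucin-type sugar chains, was separated. GALNT3 stood at 6.88 in PANC1 and 10.18 in L3.6, against 11.75, 11.90 and 11.58. Its gap was -0.85 with probe sets averaged, and with multi-transcript probe sets left out it had no value. Of the 16, 3 were lower and 1 higher without overlap, and of 11 S100 genes 2 were lower and 1 higher, with S100 gaps of at most 0.20 in size. Over all genes 9.19% were lower and 13.7% higher, so these few members are no result about either list. S100A14 was low in PANC1 alone, at 6.74, with 11.95 in L3.6 against 12.69, 10.97 and 13.31.

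No member of the WNT, TGF-beta, endoderm, chromatin, HOX or oncofetal lists was separated. The shares separated over all genes were 0.551% lower and 0.128% higher, so this absence is no result about these lists. Of 15 WNT target genes 3 were higher without overlap and 0 lower, where 13.7% of all genes were higher, NKD2 having the widest gap (0.21). Their median was 0.07, and -0.11 without HPDE. Of 19 TGF-beta and BMP genes 1 was higher, TGFB3 by 0.06, and 18 overlapped. All 10 endoderm factors overlapped. FOXA1, a pioneer factor of endoderm, stood at 7.02 in PANC1 and 11.10 in L3.6, against 9.34 in HPAF1, 10.16 in SU86.86 and 7.80 in HPDE. Of 12 chromatin repressor genes 4 were higher without overlap (33.3%, against 13.7% of all genes). Among them SUZ12 of the polycomb complex had a gap of 0.53 and the maintenance DNA methyltransferase DNMT1 one of 0.44. Of 11 HOX genes HOXC10 was higher by 0.24 and the others overlapped. The 6 oncofetal genes past the filter all overlapped. Of 22 control housekeeping genes 6 were higher without overlap (27.3%, against 13.7% of all genes). Another 2 were lower (9.09%, against 9.19%). VCP was the 1 separated, at 12.43 and 12.37 against 11.13, 11.35 and 11.24. Its gap was 0.71 with multi-transcript probe sets left out and 0.88 with probe sets averaged, both under the limit. VCP is an ATPase that extracts proteins for degradation.

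Some markers of other cell types lay well above the level filter. ISL1 of endocrine cells was at 8.99 and 9.73, against 9.03, 9.27 and 8.34, and PECAM1 of endothelium at 9.03 and 9.53, against 9.19, 9.16 and 8.96. ESAM reached 9.21 in SU86.86. PTPRC, the leukocyte antigen CD45, and POSTN of fibroblasts were below the filter in all 5 lines. Of 5 acinar markers measured 1 passed the level filter, of 7 endocrine 4, of 10 fibroblast 7, of 8 leukocyte 3 and of 8 endothelial 3. Their summed intensities ranged from 317 to 338 in the CDH1-low and 291 to 364 in the CDH1-high lines for acinar markers, and from 1199 to 1441 and 858 to 1186 for endocrine markers. For fibroblast markers the sums were 3057 to 3466 against 2211 to 2451, higher in both CDH1-low lines. COL1A1 was at 10.78 and 10.57, against 10.36, 10.05 and 10.17, and COL1A2 was at 9.91 in L3.6 alone. The part of such signal in the other differences was not tested. Leukocyte markers summed to 829 to 1284 against 901 to 4829, the upper value being that of SU86.86, where LCP1 was at 12.03, and endothelial markers to 1161 to 1380 against 1077 to 1559. Median intensity per array was 137.4 to 143.2, and 12892 to 13237 genes per line exceeded the filter. Across arrays the 9 spike-in probe sets had SDs of up to 0.14 log2 (median 0.10). The CDH1-low minus CDH1-high difference on them lay between -0.14 and -0.01.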

How the data were processed

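The authors deposited linear intensity values for 54675 probe sets on 5 Affymetrix arrays, 1 per cell line. Per the labels' protocols, RNA was extracted by a QIAGEN RNeasy procedure and labelled with the Affymetrix one-cycle kit. The sources used here do not say how the intensities were summarised or scaled. The lines' sides follow their titles under a rule set on measured CDH1 and RAB25.

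The deposited values were used unnormalized as log2(intensity + 71.1), the constant being their 25th percentile. The 62 control probe sets were left out. Gene symbols came from the platform annotation, 41091 probe sets having 1 symbol and 1801 several. Of those with 1 symbol, 41037 were updated through RefSeq (GRCh38.p14) and 54 kept the older one. The probe set with the highest mean stood for each of 19775 genes, and 14894 genes reached the median of all probe sets in at least 1 line. Python 3.11.15, pandas 2.3.3 and numpy 2.4.6 were used, and the calling step was checked on simulated data.

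The members and the 31 gene lists were chosen with earlier results of these data known. Genes named are the 15 with the widest gap each way, up to 5 per list by gap and 2 by range, and 21 fixed genes, 20 of them measured, with others named as examples after their values were seen. Alternatives were other constants, filters, probe set rules, call limits, quantile normalization and leaving out each line. The number of arrays limits the precision.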

Additional observations from a re-analysis of the deposited data

How the results depend on the processing

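The counts of separated genes, 19 higher and 82 lower, moved most with the lines used and the size of the gap required. Leaving out one line gave 38 to 296 higher and 152 to 364 lower genes. Without PANC1 there were 119 and 217, without L3.6 296 and 364, without HPAF1 38 and 152, without SU86.86 241 and 215, and without HPDE 46 and 203. By construction, fewer lines make separation easier, and all 101 genes stayed separated in each case. A gap of at least 1.5-fold gave 118 higher and 199 lower, any gap 2039 and 1369, and at least 4-fold 1 and 14. With no added constant there were 126 lower genes, and 54 when a gene's probe sets were averaged. The cause was not tested for either. With the other settings the counts were 13 to 28 higher and 56 to 106 lower, within 1.5 times of the first.

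Of 1824 recomputed differences of named genes, 1678 moved by less than the spread between lines, 144 by more and 2 were counted as reversed. The 2 were CTNNA1 (0.059) and TCF3 (-0.0088), both with multi-transcript probe sets left out. They are not all the sign changes, because genes whose sides overlap can change sign when a line is left out. CDH2 had a difference of 0.55, but L3.6 alone (7.45) lay below the CDH1-high mean (8.48). KRT5 had a difference of -0.40, but L3.6 alone (12.41) lay above the CDH1-high mean (10.25). The epithelial median of -0.84 was -0.47 without PANC1. With probe sets averaged, the named genes ARAP2, GATA2, PDE4B, UNK, VIM, CGN, MYO5B, EHF, GALNT3, EREG and VCP no longer reached the limit. Lower epithelial genes without overlap numbered 24 to 65 over all settings. No paired analysis was possible because each line has 1 array and the labels give no replicate numbers. With 1 culture per line, line and side cannot be told apart for any single gene.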
